A study of Mus musculus with 10 samples.

Results

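Hdac1, Hdac2, Hdac3 and Hdac8, the class I histone deacetylases, and Hdac11, the single class IV member, were taken by gene symbol from the deposited tables, where they make up 5 of 29564 genes listed. All 5 were among the 13305 genes tested, which were protein-coding, not mitochondrially encoded and had at least 1 estimated count in 9 of the 10 mice. Left ventricles of 5 control mice and 5 HFD+mTAC mice were compared by sequencing of polyadenylated RNA. The question was how the messenger RNA of the nuclear, zinc-dependent deacetylases stood in hearts with a heart failure model of the preserved-ejection-fraction type (HFpEF), in a study otherwise centred on the class IIb enzyme Hdac6.

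All 10 mice were wild-type C57BL6 animals by their labels, and males of the substrain C57BL/6J by the methods of the study, and the labels give vehicle as the treatment of both groups. Vehicle was a mixture of DMSO, polyethylene glycol and water, and the labels state a volume of 10 mL/kg daily over 6 to 9 weeks for HFD+mTAC mice. HFD+mTAC mice underwent moderate transverse aortic constriction (mTAC), which raises the pressure against which the left ventricle pumps, at 11 weeks of age and then ate a high-fat diet (HFD) with 60% of kilocalories from fat. Control mice had neither, ate chow with 10% of kilocalories from fat, and are not described as sham-operated. Effects of diet, constriction and surgery therefore cannot be told apart in this comparison. By the methods, mice were purchased at 10 weeks of age. The age of each mouse at collection is not given in the labels.

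Histone deacetylases remove acetyl groups from lysines, which on histone tails is associated with closed chromatin and low transcription. Hdac1 and Hdac2 are close paralogs that form the catalytic core of the NuRD, Sin3, CoREST and MiDAC complexes, whereas Hdac3 works in the NCoR complex with nuclear receptors. Hdac8 acts without such a complex and deacetylates the cohesin subunit Smc3, and Hdac11 also removes long-chain fatty acyl groups from lysines. In the heart, class I deacetylases are known for their part in hypertrophic growth, which inhibitors of these enzymes blunt in rodents.

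The loci lie on separate chromosomes of GRCm38 in the GENCODE M21 annotation. Hdac1 (ENSMUSG00000028800) spans chr4:129516104-129542713 on the minus strand and Hdac2 (ENSMUSG00000019777) spans chr10:36974544-37001889 on the plus strand. Hdac3 (ENSMUSG00000024454) spans chr18:37935844-37955016 on the minus strand. Hdac8 (ENSMUSG00000067567) spans chrX:102284639-102505359 on the minus strand, and Hdac11 (ENSMUSG00000034245) spans chr6:91156665-91174692 on the plus strand. No annotated gene overlaps Hdac1, Hdac2 or Hdac3, whereas 1 noncoding gene overlaps Hdac8 and 2 overlap Hdac11, all on the opposite strand. These overlapping genes have no row in the tables, and whether reads were assigned by strand is not given in the sources used here. A processed pseudogene of Hdac1, Gm10093 (chr17:78491582-78493025), was listed at 0 counts in all 10 mice.

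Promoters of the members with the highest and the lowest mean TPM in these hearts, Hdac2 and Hdac8, are shown as the extremes of that measure. For Hdac1 and Hdac3 no promoter was found by symbol. Each sequence is the 250 bases before the start of the gene in RefSeq (GRCm38.p6), 5′ to 3′ on the strand of the gene, at chr10:36974294-36974543 (plus strand) and chrX:102505159-102505408 (minus strand). The windows are not placed alike on the GENCODE loci above. The Hdac2 window ends just before its locus, whereas most of the Hdac8 window lies inside the GENCODE locus, whose end is upstream of the RefSeq start. Capitals mark matches, on either strand, to the Sp1-type box GGGCGG, to CCAAT and to TATAAA. The capitals CCAATTGG in Hdac8 hold a CCAAT match on each strand, which overlap.

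Hdac2: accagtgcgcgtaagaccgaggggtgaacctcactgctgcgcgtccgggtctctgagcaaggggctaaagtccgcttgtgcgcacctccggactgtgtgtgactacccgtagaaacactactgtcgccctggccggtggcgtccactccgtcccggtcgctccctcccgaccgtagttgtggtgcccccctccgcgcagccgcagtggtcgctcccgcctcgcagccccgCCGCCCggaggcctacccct

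Hdac8: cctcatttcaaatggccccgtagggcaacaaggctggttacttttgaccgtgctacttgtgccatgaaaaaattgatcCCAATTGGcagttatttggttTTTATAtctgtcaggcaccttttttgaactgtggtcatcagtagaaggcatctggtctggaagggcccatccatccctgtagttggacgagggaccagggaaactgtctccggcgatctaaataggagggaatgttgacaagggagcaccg

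The Hdac2 promoter held 27 CG dinucleotides with a GC content of 68.8%, and 91.4% of the 32851 promoters in the table held fewer. The Hdac8 promoter held 6 CG dinucleotides, the median of the table, with a GC content of 48.4% against a median of 52.4%. GGGCGG occurred 1 time in Hdac2 and not in Hdac8, and was found in 32.7% of all promoters. Hdac8 held 2 CCAAT matches and 1 TATAAA match, which were found in 33.8% and 12.4% of all promoters. A match of letters describes the sequence and does not show binding. The window of Hdac11, also in the table and also partly inside its GENCODE locus, held 17 CG dinucleotides.

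The libraries held 34.2 to 53.7 M estimated counts, of which 43.8 to 52.7% fell on mitochondrially encoded genes, and 12.7 to 21.1 M were of nuclear protein-coding genes. The left ventricular label was checked against cell type markers, given as summed deposited TPM. Deposited TPM were not renormalized and include mitochondrially encoded genes in their total, so each sum also moves with the share of those genes. The 7 cardiomyocyte markers summed to 16184 to 19845 in controls and 13886 to 16315 in HFD+mTAC mice. Atrial markers summed to 1.37 to 2.51 in control and 0.824 to 1.17 in HFD+mTAC mice, without overlap, with Sln at 0 in most mice. Only 1 of the 3 atrial genes had enough counts to be tested. Groups did not overlap in 1.29% of all genes tested by renormalized TPM, a share for single genes that was not computed for sums of deposited TPM. Fibroblast markers (88.1 to 155 in control, 73.8 to 120 in HFD+mTAC), endothelial markers (77.8 to 139 and 62.1 to 132) and smooth muscle and pericyte markers (55.4 to 103 and 45.4 to 85.9) overlapped between the groups. So did macrophage markers (18.5 to 37.9 and 21.8 to 28.2) and red cell markers (89.9 to 874 and 95.1 to 859). Lymphocyte markers summed to at most 0.462 and adipocyte markers to at most 0.511, with Plin1 at 0 in most mice. Mesothelial markers summed to 0.930 to 6.03 and 2.14 to 4.67, with Msln and Upk3b at 0 in most mice, and Schwann cell markers to 0.451 to 0.858 and 0.281 to 0.483. In the edgeR fit on counts, 1 cardiomyocyte marker was higher and 6 were lower with HFD+mTAC. Fibroblast, endothelial and macrophage markers each had 3 higher and 2 lower, smooth muscle and pericyte markers 2 and 2, and red cell markers 0 and 4. None of the markers tested was called, and the part of cell composition in the values below was not tested. In bulk tissue, fewer cells of a type and less RNA per cell cannot be told apart.

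None of the 5 genes was called between HFD+mTAC and control mice. In the edgeR quasi-likelihood test with Benjamini-Hochberg adjustment, 0 of 5 passed an adjusted p of 0.05, against 0.0601% of all genes tested (8 of 13305, 6 higher and 2 lower). Without adjustment, 0 of 5 had a p under 0.05, against 8.26% of all genes. DESeq2 called 0 of 5, against 0.92% of the genes to which it gave an adjusted p. No member had groups without overlap in CPM (counts scaled to a common TMM-adjusted library size), against 1.96% of all genes. The median log2 fold change was 0.04 over the 5 members and 0.00 over all genes tested, and with the average transcript lengths as an offset the members' median turned to -0.10.

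Hdac2, a catalytic subunit of the corepressor complexes, had the most counts, 1088 to 1998 per mouse. Its CPM were 90.4, 79.7, 97.8, 87.9 and 85.6 in controls (TT-583 to TT-587) and 81.8, 89.4, 84.6, 75.7 and 74.3 in the HFD+mTAC group (TT-588 to TT-592). The lowest values were those of HFD+mTAC mice TT-591 and TT-592, but the other 3 lay within the control range. The means were 88.3 ± 6.65 in control and 81.2 ± 6.25 in HFD+mTAC mice (SD, n = 5 each). The log2 fold change was -0.12 (SE 0.08, edgeR adjusted p = 0.764), and the 95% confidence interval of the fold ran from 0.814 to 1.04.

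Hdac1, the paralog and partner of Hdac2, had 435 to 596 counts per mouse. Its CPM were 28.6, 28.2, 26.2, 30.8 and 34.9 in controls and 31.0, 31.0, 33.4, 32.8 and 34.8 in HFD+mTAC mice. All 5 HFD+mTAC mice lay above 4 of the control mice and below the remaining control, TT-587. The means were 29.7 ± 3.31 and 32.6 ± 1.63 (SD, n = 5 each). The log2 fold change was 0.13 (SE 0.09, edgeR adjusted p = 0.773), with a fold between 0.954 and 1.26.

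Because both paralogs occupy the same place in their complexes, the ratio of Hdac1 to Hdac2 was compared as well. In CPM it was 0.316, 0.353, 0.268, 0.350 and 0.408 in controls and 0.379, 0.347, 0.395, 0.434 and 0.468 in HFD+mTAC mice. The 2 highest ratios were in HFD+mTAC mice TT-591 and TT-592 and the lowest was in control mouse TT-585, with overlap in between. On the log2 scale the ratio was -1.57 ± 0.22 in control and -1.31 ± 0.17 in HFD+mTAC mice, a difference of 0.26 (SD, n = 5 each, two-sided exact permutation test, p = 0.0794). The smallest p that 5 mice against 5 can give is 0.00794. From TPM, which divide by transcript length, the ratio was -2.42 ± 0.51 and -2.17 ± 0.50, a difference of 0.25 (exact permutation test, p = 0.444).

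Hdac3, the catalytic subunit of the NCoR complex, had 712 to 1289 counts per mouse. Its CPM were 61.9, 51.3, 53.3, 54.6 and 60.2 in controls and 48.2, 57.8, 56.1, 48.6 and 56.8 in HFD+mTAC mice. TT-588 and TT-591 were lower than every control mouse, and the other 3 HFD+mTAC mice lay among the controls. The means were 56.3 ± 4.55 and 53.5 ± 4.69 (SD, n = 5 each). The log2 fold change was -0.07 (SE 0.09, edgeR adjusted p = 0.895), with a fold between 0.835 and 1.08.

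Hdac8, the cohesin deacetylase, was the scarcest member, with 58 to 103 counts per mouse. Its CPM were 4.94, 4.47, 4.06, 5.78 and 5.90 in controls and 6.21, 4.96, 4.46, 4.37 and 5.83 in HFD+mTAC mice. The ranges of the groups almost coincided, with means of 5.03 ± 0.802 and 5.17 ± 0.823 (SD, n = 5 each). The log2 fold change was 0.04 (SE 0.17, edgeR adjusted p = 0.970), and its fold interval, 0.793 to 1.34, was the widest of the 5. Counting error and the spread between mice were not separated in this interval.

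Hdac11, the class IV enzyme, had 310 to 823 counts per mouse. Its CPM were 38.0, 35.5, 40.3, 36.6 and 24.4 in controls and 35.1, 43.6, 36.3, 31.9 and 44.7 in HFD+mTAC mice. Control mouse TT-587 was the lowest and HFD+mTAC mice TT-589 and TT-592 were the highest, while the other 7 lay between 31.9 and 40.3. The means were 35.0 ± 6.18 and 38.3 ± 5.55 (SD, n = 5 each). The log2 fold change was 0.13 (SE 0.14, edgeR adjusted p = 0.873), with a fold between 0.887 and 1.35.

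**Figure D1:**
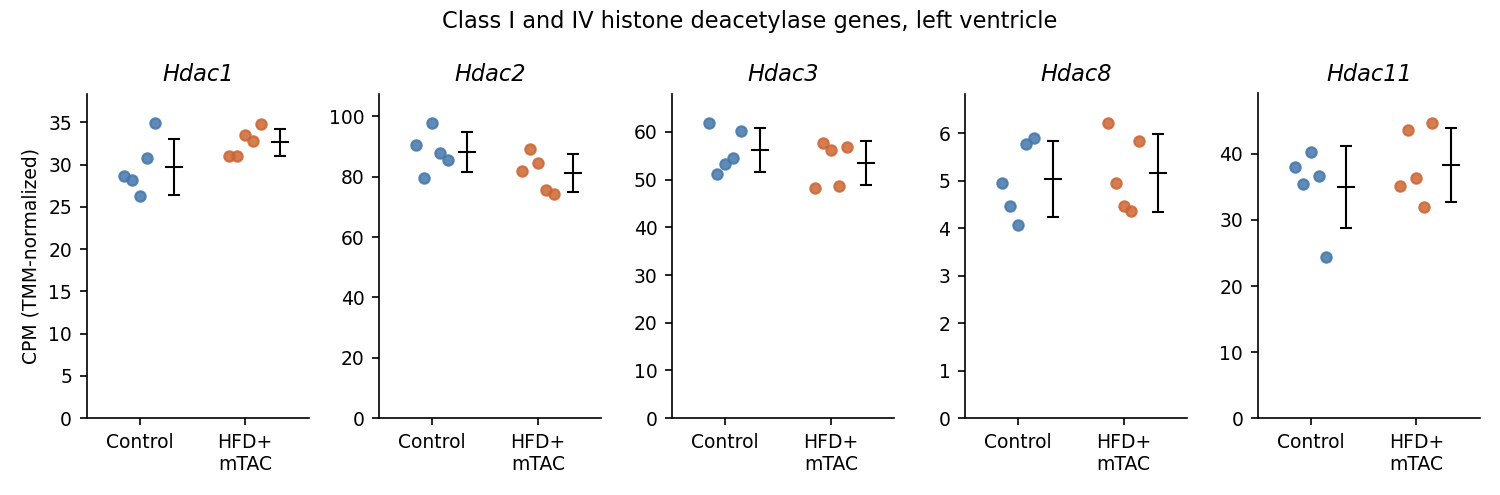
TMM-normalized CPM (vertical axes, starting at 0, 1 panel per gene) of the 5 deacetylase genes in each control and HFD+mTAC mouse (points), with the mean and SD of each group beside them. The groups overlap in every panel, and Hdac2 is the most abundant by CPM, at 74.3 to 97.8.

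**Figure D2:**
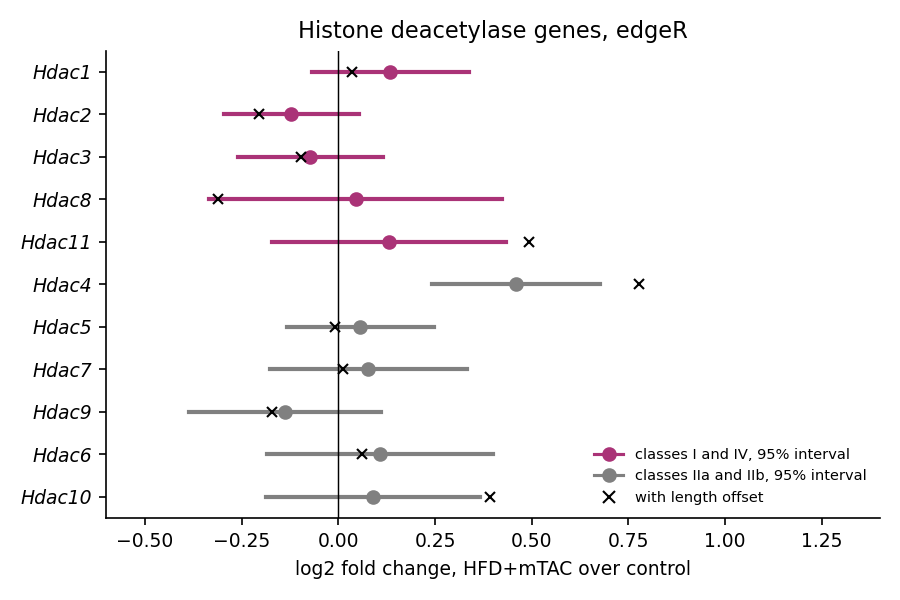
Log2 fold changes, HFD+mTAC over control, of the 11 classical histone deacetylase genes (edgeR, points) with 95% confidence intervals, and the same with the average transcript lengths as an offset (crosses). The points of the 5 class I and IV genes lie between -0.12 and 0.13 with intervals that include 0, and that of Hdac4, of class IIa, lies at 0.46. The crosses furthest from 0 are those of Hdac4 (0.78), Hdac11 (0.49), Hdac10 (0.39) and Hdac8 (-0.31).

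The other classical deacetylases, of classes IIa and IIb, give the scale of these differences. Of 6 tested, 5 had a positive and 1 a negative log2 fold change, and 0 were called by edgeR, against 0.0601% of all genes. Hdac4, a class IIa enzyme that binds the muscle transcription factor Mef2, had 26.5 ± 2.12 CPM in control and 36.3 ± 4.13 in HFD+mTAC mice (SD, n = 5 each), and its groups did not overlap, as in 1.96% of all genes. Its log2 fold change was 0.46 (SE 0.10), with an adjusted p of 0.197 in edgeR and 0.00911 in DESeq2, which called 0.92% of the genes with an adjusted p. For Hdac6, the log2 fold change was 0.11 (edgeR adjusted p = 0.899). The other 4, Hdac5, Hdac7, Hdac9 and Hdac10, lay between -0.14 and 0.09. With the average transcript lengths as an offset, Hdac4 was at 0.78 (edgeR adjusted p = 0.0846) and Hdac10 at 0.39 (edgeR adjusted p = 0.787). Hdac5, Hdac6, Hdac7 and Hdac9 then lay between -0.17 and 0.06.

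Levels of different genes were compared as TPM, renormalized over the genes tested. Hdac2 was the highest of the 5 at 104 ± 16.0 TPM, followed by Hdac3 at 23.8 ± 3.24, Hdac1 at 22.0 ± 7.75, Hdac11 at 7.01 ± 2.66 and Hdac8 at 2.89 ± 1.33 (SD, n = 10 mice). Hdac2 exceeded Hdac3 in 10 of 10 mice, by 2.12 ± 0.27 on the log2 scale of TPM (exact sign-flip permutation test, p = 0.00195, the smallest that 10 mice can give). Hdac3 and Hdac1 did not differ beyond their spread, since Hdac3 was higher in 6 of 10 mice by a mean log2 ratio of 0.17 ± 0.47 (exact sign-flip permutation test, p = 0.252). Hdac1 exceeded Hdac11 in 10 of 10 mice (log2 ratio 1.66 ± 0.70, p = 0.00195, exact sign-flip permutation test). Hdac11 exceeded Hdac8 in 9 of 10 mice (log2 ratio 1.29 ± 0.76, p = 0.00391, same exact test), the exception being TT-587.

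This order depended on the length by which counts were divided. Per kilobase of the annotated coding transcript with most exons, mean CPM were 42.3 for Hdac2, 27.0 for Hdac3, 15.3 for Hdac1, 13.8 for Hdac11 and 2.63 for Hdac8. On that scale Hdac2 exceeded Hdac3 by only 0.65 (log2), Hdac3 exceeded Hdac1 in 10 of 10 mice by 0.82, and Hdac1 and Hdac11 differed by 0.16, with Hdac1 higher in 7 of 10 mice (exact sign-flip permutation test, p = 0.137). Per kilobase of the longest coding transcript, which for Hdac2 has 3250 bases in place of 2005, Hdac2 fell to 26.1, and the log2 ratio to Hdac3 became -0.05, with Hdac2 higher in 3 of 10 mice. Hdac8 was the lowest member on all 3 scales.

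**Figure D3:**
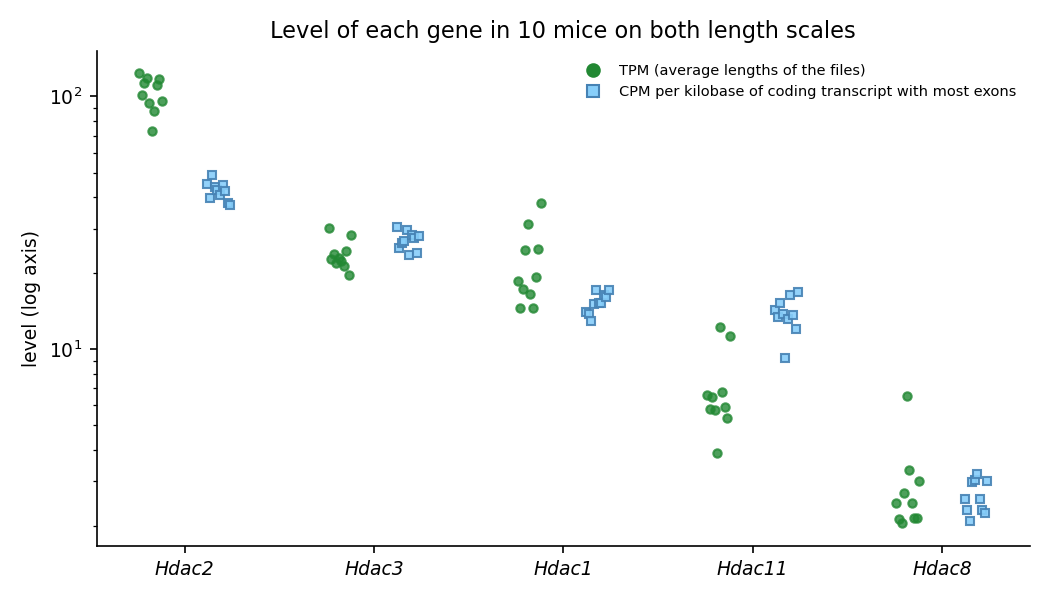
Level of the 5 genes in each of the 10 mice (logarithmic vertical axis), as renormalized TPM (circles) and as CPM per kilobase of the annotated coding transcript with most exons (squares). Hdac2 is highest on both scales, at means of 104 TPM and 42.3 CPM per kilobase, and Hdac11 stands near Hdac1 on the second scale only.

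Among the 11 classical deacetylases, Hdac2 had rank 1, Hdac3 rank 4 and Hdac1 rank 5 by mean TPM, behind the class IIa genes Hdac7 (32.1) and Hdac5 (27.4). Hdac11 had rank 6 and Hdac8 rank 10, above Hdac4 (2.36) only. These ranks rest on the deposited lengths, which for Hdac4 had a mean of 14350 bases. By mean CPM, which is not divided by length, Hdac5 (115) and Hdac7 (85.8) stood above Hdac2 (84.7). Hdac4 (31.4) stood beside Hdac1 (31.2) on that measure, and Hdac8 (5.10) was the lowest of the 11. Hdac2 was above 91.7% of the genes tested, Hdac3 above 74.3%, Hdac1 above 73.0%, Hdac11 above 51.1% and Hdac8 above 33.5%. Together the 5 members made up 68.8 ± 4.88% of the summed TPM of the 11 genes in control and 66.0 ± 4.34% in HFD+mTAC mice (SD, n = 5 each, exact permutation test, p = 0.357). Their own sum was 165 ± 13.5 TPM in control and 154 ± 22.3 TPM in the HFD+mTAC group (exact permutation test, p = 0.365). This share and this sum rest on the deposited lengths too, which for Hdac2 had a mean of 871 bases. Neither was computed on another length scale.

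In the summed TPM of the 5 members, Hdac2 held 66.9 ± 4.23% in control and 63.0 ± 6.77% in HFD+mTAC mice (SD, n = 5 each, exact permutation test, p = 0.222). The share of Hdac11 was 3.46 ± 0.632% and 5.59 ± 2.60% (p = 0.103, same exact test). Hdac1 held 12.9 and 14.4% (exact p = 0.548), Hdac3 held 14.7 and 15.2% (exact p = 0.659), and Hdac8 held 1.94 and 1.75% (exact p = 0.889). With all 10 mice included, no share had a p under 0.05. These shares rest on the deposited lengths, as the TPM levels do. Per kilobase of the coding transcript with most exons, mean CPM were 42.3 for Hdac2 and 27.0 for Hdac3, and Hdac2 fell to 26.1 with its longest coding transcript. The difference in the Hdac11 share, 2.13 percentage points, moved with single mice. It was 1.12 without HFD+mTAC mouse TT-588 (exact permutation test, p = 0.198), 2.62 without TT-590 (exact permutation test, p = 0.0476) and 2.74 without TT-591 (exact permutation test, p = 0.0238).

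TPM and CPM gave different pictures for single mice, which was plainest for Hdac11. Its TPM were 6.58, 5.78, 6.46, 5.74 and 3.88 in controls and 12.3, 6.79, 5.93, 5.35 and 11.3 in HFD+mTAC mice. TT-588 and TT-592 stood above the rest, of which the highest was 6.79, although the CPM of TT-588 (35.1) was close to the control mean. The mean of log2(TPM + 1) was 0.43 higher with HFD+mTAC (exact permutation test, p = 0.175, with overlap). The difference was 0.29 without TT-588 (exact permutation test, p = 0.333), 0.31 without TT-592 (exact permutation test, p = 0.317) and 0.55 without TT-591 (exact permutation test, p = 0.0397). Without both TT-588 and TT-592 it was 0.08 (limma, adjusted p = 0.955), and from TPM as deposited it was 0.18 (exact permutation test, p = 0.349).

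TPM divide the counts by the average effective transcript lengths, which the authors deposited for each gene and mouse. For Hdac11 these were 5993, 6004, 6618, 6412 and 6294 bases in controls and 3198, 6875, 6112, 6387 and 4189 bases in HFD+mTAC mice. The same 2 mice, TT-588 and TT-592, had the short values, and the other 8 lay between 5993 and 6875 bases. The centred log2 length differed by -0.27 between the groups (limma, adjusted p = 0.585). With the lengths as an offset in edgeR, the log2 fold change of Hdac11 was 0.49 (SE 0.22, unadjusted p = 0.0444, adjusted p = 0.660), and 0 of 5 members were called, against 0.00752% of all genes. Of all genes, 7.46% had an unadjusted p under 0.05 in that fit. Without TT-588 and TT-592, a choice made after seeing the data, the log2 fold change was 0.09 in edgeR (adjusted p = 0.956) and 0.12 with the offset (adjusted p = 0.933).

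Hdac8 had a single deviating length. Its lengths were 2081, 2048, 2105, 2148 and 908 bases in controls and 2094, 2153, 2079, 2182 and 2048 bases in HFD+mTAC mice. Control mouse TT-587 alone lay below 2048 bases, and its TPM was 6.50, against 2.05 to 2.70 in the other control mice. In HFD+mTAC mice TPM were 3.32, 2.47, 2.14, 2.14 and 3.02. By CPM, TT-587 (5.90) was no outlier. The log2 fold change was 0.04 by counts and -0.31 with the length offset (edgeR adjusted p = 0.869), and without TT-587 the offset fit gave 0.14 (adjusted p = 0.915).

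For Hdac1 the lengths were 1597, 1899, 1613, 1247 and 1119 bases in controls and 2104, 2286, 1725, 1406 and 972 bases in HFD+mTAC mice. Both groups held long and short values, and the TPM, 18.6, 14.5, 17.3, 24.8 and 31.2 in controls and 16.5, 14.5, 19.4, 25.0 and 38.0 in HFD+mTAC mice, were highest in the 4 mice with the shortest lengths. The SD of Hdac1 was larger in TPM (6.71 and 9.42 around means of 21.3 and 22.7) than in CPM. The difference of log2(TPM + 1) was 0.06 (exact permutation test, p = 0.841).

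For Hdac2 the lengths were 760, 767, 919, 746 and 907 bases in controls and 1252, 1092, 758, 689 and 823 bases in HFD+mTAC mice. TT-588 and TT-589 had the longest values, and their TPM, 73.2 and 87.6, were the lowest of the 10 mice. The other TPM were 124, 102, 113, 118 and 94.4 in controls and 111, 118 and 95.7 in TT-590 to TT-592. The difference of log2(TPM + 1) was -0.19 (exact permutation test, p = 0.198). Hdac3 lengths lay between 2120 and 2902 bases, the narrowest relative range of the 5. Hdac3 TPM were 30.2, 22.7, 23.7, 21.9 and 22.9 in controls and 22.3, 21.3, 24.6, 19.6 and 28.4 in HFD+mTAC mice, and the difference of log2(TPM + 1) was -0.06 (exact permutation test, p = 0.603). For Hdac8 that difference was -0.13 (exact permutation test, p = 0.817).

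**Figure D4:**
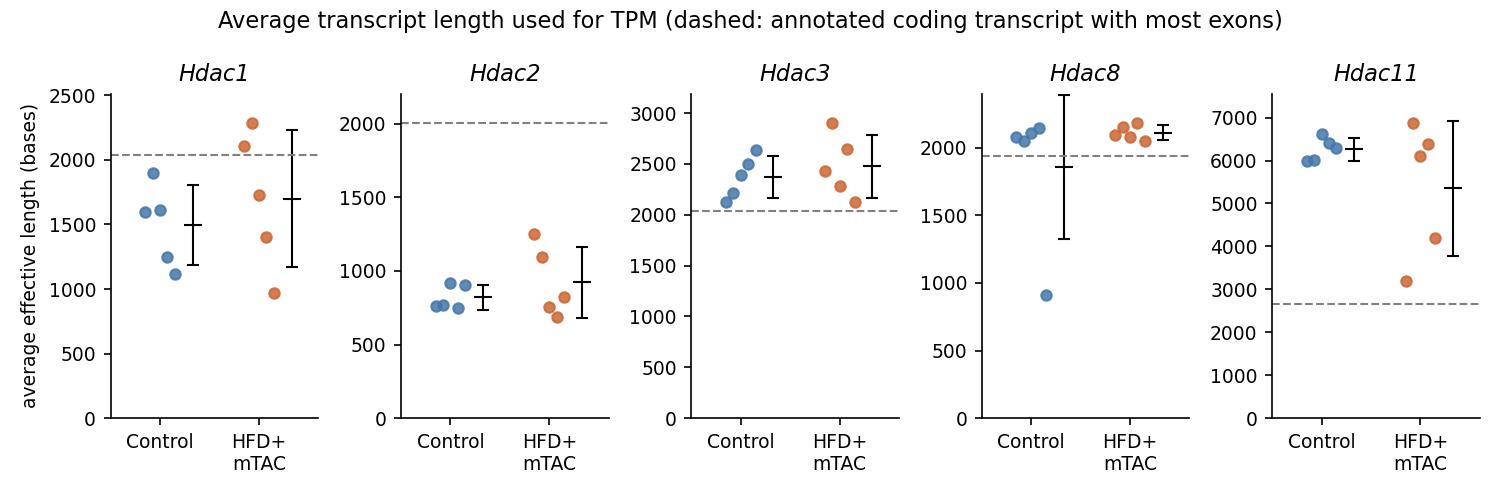
Average effective transcript length in bases (vertical axes, starting at 0, 1 panel per gene) of the 5 deacetylase genes in each control and HFD+mTAC mouse (points), with the mean and SD of each group beside them and the annotated coding transcript with most exons as a dashed line. TT-588 and TT-592 (3198 and 4189 bases) lie apart for Hdac11 and TT-587 (908 bases) for Hdac8.

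The ratio of the longest to the shortest value over the 10 mice was 2.35 for Hdac1, 1.82 for Hdac2, 1.37 for Hdac3, 2.40 for Hdac8 and 2.15 for Hdac11. Over all genes tested the median ratio was 1.42, and 27.0% of genes had a ratio above 2. Thus 43.6% of all genes varied less than Hdac3, and 69.1 to 79.1% varied less than each of the other 4. None of the 5 genes was called in length, with log2 differences from -0.27 to 0.27 (limma, adjusted p from 0.585 to 0.825, 0 of 5 called against 0% of all genes, and 7.41% of all genes with an unadjusted p under 0.05).

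Set against the transcripts of GENCODE M21, some of these lengths were out of range. The methods of the study name a later GENCODE release, and the transcript set behind the deposited lengths could not be settled from the files, so the comparison holds for this annotation only. Hdac11 lay above its longest annotated transcript, a coding transcript with 2653 bases, in 10 of 10 mice, and Hdac2 lay below its shorter coding transcript, with 2005 bases, in 10 of 10 mice. Hdac1 has 1 coding transcript of 2038 bases among 7, of which 6 are retained-intron forms of 473 to 844 bases, and lay above 2038 bases in 2 mice and below in 8. Hdac3 and Hdac8 have 1 coding transcript each, with 2032 and 1936 bases. The deposited value is a model-based effective length averaged over transcripts, so it need not equal any annotated length, and its relation to isoform use was not tested. The medians over all genes tested were 2906, 2839, 2814 and 2829 bases in TT-583, TT-584, TT-588 and TT-592, against 2997 to 3305 bases in the other 6 mice.

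Partners of Hdac1 and Hdac2 were read from the same edgeR fit as lists. In the NuRD complex, which couples deacetylation to nucleosome remodelling, 5 genes had positive and 7 negative log2 fold changes of 12 tested (median -0.03). Its remodelling ATPase Chd4 was at 0.16 (SE 0.10, adjusted p = 0.714) and the histone chaperone Rbbp4 at -0.10 (SE 0.07, adjusted p = 0.788). In the Sin3 complex, 7 were positive and 8 negative of 15 tested (median -0.02). Its subunit Sap130 had 29.2 ± 3.65 CPM in control and 35.1 ± 3.41 in HFD+mTAC mice (SD, n = 5 each). It was at 0.27 on the log2 fold scale (SE 0.11, adjusted p = 0.514), and Sap30 was at -0.21 (adjusted p = 0.772).

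In the CoREST complex, which pairs Hdac1 and Hdac2 with the lysine demethylase Kdm1a, 6 genes were positive and 4 negative of 10 tested. The median was 0.04, and 0.29 with the length offset. Over all genes tested the median was 0.00 in both fits. The median absolute log2 fold change over all genes was 0.12, and 0.18 with the offset. Gse1 was at 0.23 (SE 0.11, adjusted p = 0.620). Both MiDAC genes tested were positive, with Elmsan1, its scaffold, at 0.12 (SE 0.11, adjusted p = 0.843).

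For Hdac3, 4 genes of the NCoR complex were positive and 1 negative of 5 tested (median 0.03). Tbl1x, a WD-repeat subunit, was at -0.02 (adjusted p = 0.973). Of 10 receptors and repressors that recruit the complex, 4 were positive and 6 negative (median -0.07), among them the clock repressor Nr1d2 at 0.22 (adjusted p = 0.791) and the transcriptional repressor Bcl6 at -0.31 (SE 0.14, adjusted p = 0.611). Over the 5 complexes together, 24 of 44 genes tested were positive and 20 negative, 0 were called, and 4.55% had an unadjusted p under 0.05, against 8.26% of all genes.

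Hdac8 acts on cohesin, the ring that holds sister chromatids and shapes chromatin loops. Of 11 cohesin genes tested, 7 were positive and 4 negative (median 0.03), with the core subunit Smc1a at 0.12 (SE 0.07, adjusted p = 0.732) and Stag1 at -0.13 (SE 0.08, adjusted p = 0.736). Of genes listed as Hdac11 substrates or targets, 3 were tested and all 3 were positive (median 0.25, and 0.06 with the length offset). Brd2, a reader of acetylated histones, was at 0.25 (SE 0.10, adjusted p = 0.525) by counts and at 0.05 with the offset. Ucp1 was listed at 0 in all mice and Il10 had 0 to 7 counts, so neither was tested.

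Lysine acetyltransferases add the groups that deacetylases remove. Of 9 lysine acetyltransferases tested, 5 were positive and 4 negative (median 0.07), with Kat6a at 0.23 (SE 0.09, adjusted p = 0.514) and Crebbp at -0.40 (SE 0.20, adjusted p = 0.629). Of 5 class I deacetylase partners and targets in cardiac hypertrophy, 2 were positive and 3 negative (median -0.04). The phosphatase genes of that list were Inpp5f, an inositol phosphatase, at 0.16 (SE 0.17, adjusted p = 0.872), and Dusp5, a phosphatase of Erk, at -0.59 (SE 0.24, adjusted p = 0.514). Over all 10 lists, 82 of 88 genes were tested, with 45 positive and 37 negative. Of these, 0 were called by edgeR, by DESeq2 or with the length offset, and 6.10% had an unadjusted p under 0.05. Over all genes tested these shares were 0.0601% for edgeR, 0.92% for DESeq2 (of genes with an adjusted p), 0.00752% with the offset and 8.26% unadjusted. Gatad2b, of NuRD, and Tsc2 were listed at 0 in all mice and Kat5 in 8 of 10, and these were not tested. Trerf1, of MiDAC, was not analysed here.

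**Figure D5:**
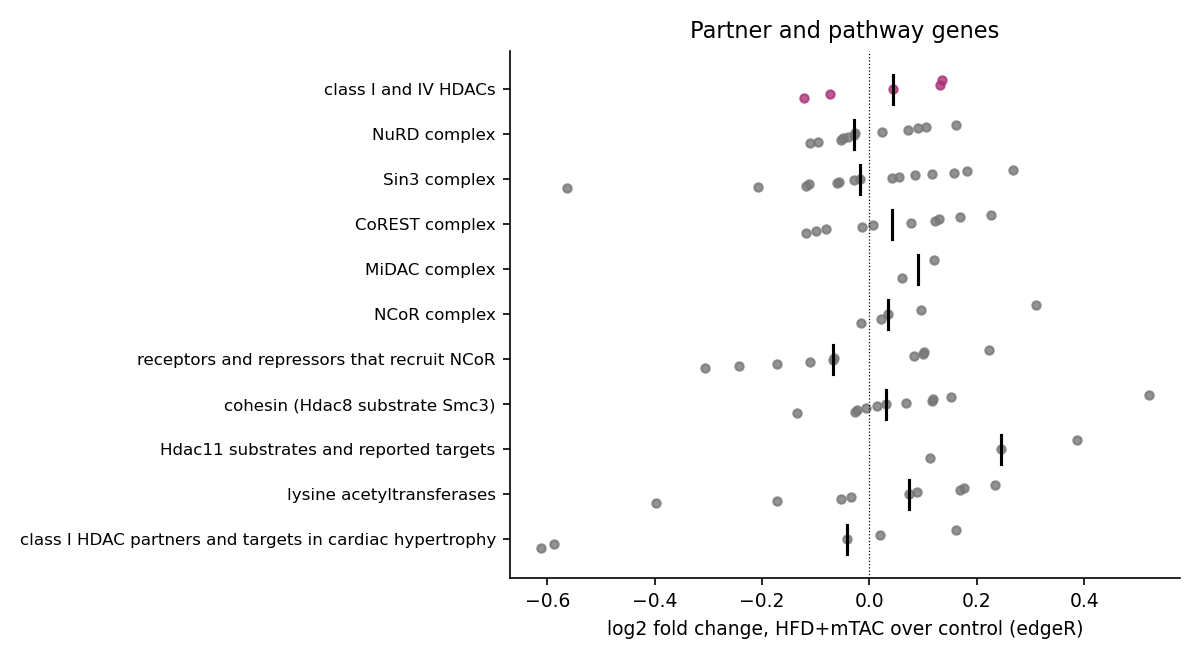
Log2 fold changes, HFD+mTAC over control, of single genes (points) among the 5 deacetylases and in their partner and pathway lists, fitted with edgeR, with the median of each list (bars). The medians lie between -0.07 and 0.25, and no gene of the 10 lists passed an adjusted p of 0.05.

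Genes whose CPM varied most like each member over the 10 mice were listed as a description, with no test, since all values of a mouse share its library. Hdac2 was most like Ran, the nuclear transport GTPase (Pearson r = 0.946, Spearman rho = 0.939), then Cfap36 (r = 0.898) and Tefm (r = 0.878). Hdac1 was most like Rad52, a recombination protein (r = 0.946, rho = 0.927), then Cpeb1 (r = 0.941) and Tmem55b (r = 0.922). Hdac3 was most like Chchd5 (r = 0.931, rho = 0.915), Pot1a (r = 0.874) and Ift43 (r = 0.861). Hdac8 was most like Adnp2 (r = 0.946, rho = 0.976), Dzip1l (r = 0.917) and Cep162 (r = 0.903). Hdac11 was most like Tmco3 (r = 0.965, rho = 0.952), Fam110b (r = 0.946) and Map2k5, a kinase of the Erk5 pathway (r = 0.943, rho = 0.782). These are the top 3 of each member among genes tested at a mean level of 5 CPM or more, and no member was in the list of another.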

How the data were processed

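Polyadenylated RNA of 10 left ventricles was sequenced from a stranded kit. The authors quantified reads with salmon 1.6.0 on GENCODE mouse transcripts and summed them to genes, and deposited estimated counts (20.07% not whole), TPM values and average effective transcript lengths in bases (estimates of the quantification model). The labels name the human build hg38, although the genes are mouse genes. Symbols were matched to GENCODE M21 (27862 directly, 891 by an older symbol, 811 not matched).

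Counts were rounded and tested with edgeR 4.0.16 in R 4.3.3 (TMM, quasi-likelihood test, common dispersion 0.0422, Benjamini-Hochberg adjustment over the genes tested, threshold 0.05). TPM were analysed as log2(TPM + 1) after renormalization, by exact permutation (two-sided, 252 arrangements of the mice), and lengths with limma 3.58.1. Alternatives used DESeq2 1.42.0, limma, other scalings and filters, all biotypes, lengths as an offset, a pseudocount of 0.1 and the omission of each mouse. Scripts were tested on simulated data. The members and lists were chosen with earlier results of these data known. Genes were named from each list as those called and the smallest unadjusted p in each direction, plus pseudogenes of members and the 3 genes most like each member. A few genes chosen this way are not reported here. No batch is given in the labels.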

Additional observations from a re-analysis of the deposited data

Results flagged for a closer look

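Of 30 groups of 5 mice examined for an isolated value (TPM, CPM and average length of the 5 genes in each group), 3 held one by Dixon's criterion, and chance flags about 1 in 20. The TPM of Hdac3 in control mouse TT-583 was 30.2, far above the other 4 control mice. The TPM of Hdac8 in control mouse TT-587 was 6.50, and the average transcript length of Hdac8 in the same mouse was 908 bases, far below the other 4 control mice. No CPM value of the 5 genes was isolated in this way.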

How the results depend on the processing

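The p-values measure the spread between 5 mice per group, and the fold of Hdac8 (58 to 103 counts) was bounded only between 0.793 and 1.34. No pairing of mice between the groups was possible because each mouse has a number of its own that no mouse of the other group shares. Under DESeq2, other scalings, filters, biotypes and the robust fit, the 5 log2 fold changes kept their direction and none was called.

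Hdac8 changed sign, to -0.13 with limma on log2(TPM + 1) (adjusted p = 0.944) and -0.31 with the length offset (adjusted p = 0.869). Over all genes tested, 8 were called, against 120 with DESeq2, 1 with the offset and 1 with limma on TPM. From TPM as deposited, the difference of log2(TPM + 1) was -0.056 for Hdac1 (exact permutation test, p = 0.849) in place of 0.06, -0.33 for Hdac2 (exact p = 0.0873) in place of -0.19, -0.17 for Hdac3 (exact p = 0.278) in place of -0.06, -0.10 for Hdac8 (exact p = 0.421) in place of -0.13 and 0.18 for Hdac11 (exact p = 0.349) in place of 0.43. DESeq2 called 1 of the other classical deacetylases, Hdac4. In the order of levels, chosen after seeing the data, counts per kilobase of the longest coding transcript gave mean log2 ratios of -0.051 (Hdac2 over Hdac3), 0.82 (Hdac3 over Hdac1), 0.16 (Hdac1 over Hdac11) and 2.39 (Hdac11 over Hdac8), and the coding transcript with most exons gave 0.65, 0.82, 0.16 and 2.39.

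Leaving out each mouse in turn, the log2 fold change ran from 0.09 to 0.20 for Hdac1, -0.16 to -0.08 for Hdac2, -0.10 to -0.04 for Hdac3, -0.033 to 0.11 for Hdac8 (negative without TT-585, TT-588 or TT-592) and 0.03 to 0.19 for Hdac11, and 1 to 9 genes were called in the whole table. The difference of log2(TPM + 1) ran from -0.14 to 0.20 for Hdac1, -0.27 to -0.10 for Hdac2, -0.14 to 0.016 for Hdac3, -0.22 to 0.11 for Hdac8 and 0.29 to 0.55 for Hdac11. The difference in share of the summed TPM ran from -0.326 to 3.13 percentage points for Hdac1, -5.76 to -1.69 for Hdac2, -0.0559 to 1.41 for Hdac3, -0.409 to 0.342 for Hdac8 and 1.12 to 2.74 for Hdac11. The difference between the groups in the log2 ratio of Hdac1 to Hdac2, by TPM, ran from 0.045 (without TT-592) to 0.46 (without TT-587), around 0.25 with all mice. For the same ratio by CPM, single mice were not left out. Without TT-587, the edgeR log2 fold change of Hdac1 was 0.20 (unadjusted p = 0.0404, adjusted p = 0.515) and that of Hdac11 was 0.03. The share of all genes with an unadjusted p under 0.05 was not computed for that fit, and was 8.26% with all mice. Length differences kept their direction. The cause of these shifts was not tested.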
